A study of Homo sapiens with 12 samples.

Results

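In all, 10 nuclear receptors of lipid and bile acid metabolism were followed through 12 RNA sequencing libraries of 3 hepatocellular carcinoma lines. The members were set by a list of names and not by a threshold on their values: NR1H4, NR1H3, NR0B2, PPARA, PPARD, RXRA, NR1I2, NR2F1, NR2F2 and ESRRA. The expression table held 9 of these 10 among its 11548 genes, and NR1I2 (PXR, a sensor of foreign compounds and of some bile acids) was not analysed here. Hep3B, MHCC97H and Huh7 are established human liver cancer lines, each given the genotype WT in the labels and each represented by 1 library per treatment. The 4 treatments were untreated cells, AZD8055, compound #57 and the combination of AZD8055 with compound #57. AZD8055 blocks the kinase mTOR and was used at 100 nM, and compound #57 is an allosteric inhibitor of the phosphatase SHP2, present at 5 uM in the combination. The dose of compound #57 alone is not given in the sources used here. MHCC97H was exposed for 24 h, whereas Hep3B and Huh7 were exposed for 48 h, so exposure time and MHCC97H cannot be told apart.

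Nuclear receptors are transcription factors that many small lipid ligands switch on directly. NR1H4 (FXR) is the bile acid receptor of the liver; it raises NR0B2 (SHP), a receptor without a DNA-binding domain that represses bile acid synthesis. NR1H3 (LXR alpha) senses oxysterols, PPARA and PPARD sense fatty acids, and these receptors bind DNA together with RXRA. NR2F1 and NR2F2 (COUP-TFI and COUP-TFII) are orphan receptors that compete for similar elements, and ESRRA (ERR alpha) is an orphan receptor that drives mitochondrial genes with its coactivators of the PGC1 family.

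The libraries held from 10659951 to 15957252 reads, and the values are given below as scaled reads, meaning reads per 10000000 reads of the library. All 14 hepatocyte markers examined were in the table, and in MHCC97H all 14 were lower than in Hep3B and than in Huh7. Their summed level was 2077 to 4720 scaled reads in the MHCC97H libraries, against 288085 to 688389 in Hep3B and 379727 to 569885 in Huh7, and TTR did not exceed 3 reads in any MHCC97H library. Of 7 immune and endothelial markers only PECAM1 was in the table. Summed cholangiocyte markers lay between 5384 and 26362 scaled reads over the 12 libraries. Summed mesenchymal markers were higher with AZD8055 than in untreated cells of each line, at 40660 against 25364 scaled reads in Hep3B, 171721 against 82991 in MHCC97H and 141676 against 66429 in Huh7. The part of these marker differences in the receptor results was not tested.

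Compared per kilobase of the canonical transcript, RXRA stood highest of the 9 receptors in untreated cells of each line, with 238 scaled reads per kb in Hep3B, 318 in MHCC97H and 307 in Huh7. PPARA was lowest in Hep3B at 21.3 and in Huh7 at 36.1 scaled reads per kb, and NR0B2 was lowest in MHCC97H at 1.32. The lines differed mainly in which receptor came next. In untreated Hep3B it was NR0B2 at 225 scaled reads per kb, followed by ESRRA at 213 and NR1H3 at 180. In untreated MHCC97H ESRRA followed at 243, and NR1H4 stood at 6.73. In untreated Huh7 NR1H4 followed at 250, ahead of NR2F2 at 178 and NR2F1 at 129. Each untreated value comes from 1 library and has no replicate.

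**Figure D1:**
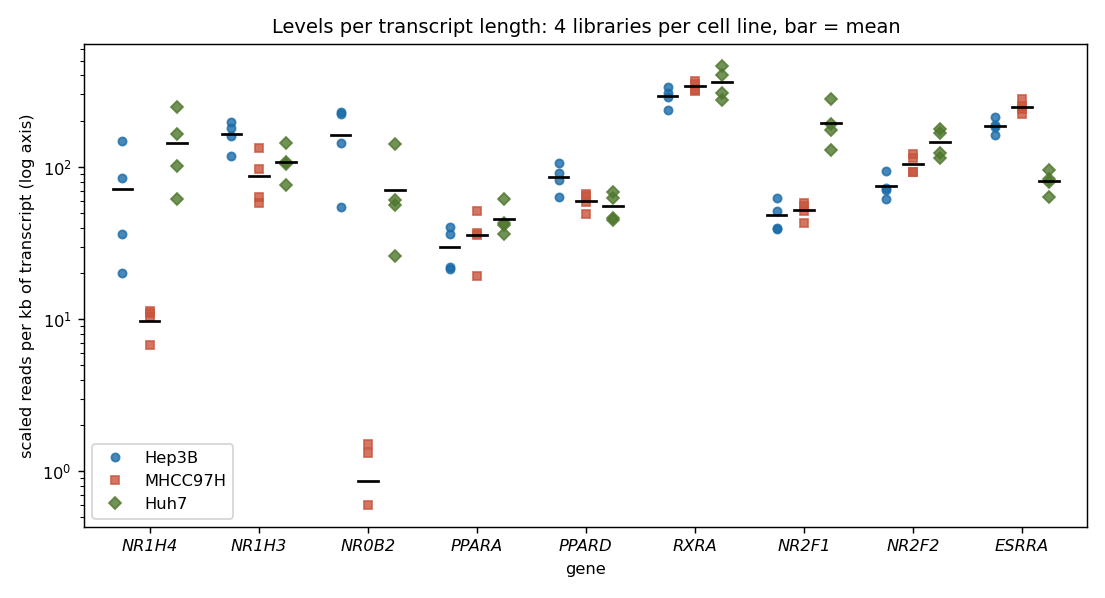
Scaled reads per kilobase of canonical transcript (log axis) of the 9 receptors, with 4 libraries per cell line as points and their mean as a bar. NR1H4 and NR0B2 lie far lower in MHCC97H than in the other lines, and the 1 MHCC97H library with no NR0B2 read has no point on the log axis but counts in the bar.

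Each pair of lines was compared over the 4 treatments with limma, treatment being a term of the model and p-values being adjusted over all genes by Benjamini-Hochberg at a threshold of 0.05. These p-values measure only the spread between the libraries at hand, since nothing says that any came from a separate culture of the same treatment. Of the 9 receptors 6 differed between MHCC97H and Hep3B, where 67.8% of all genes were called, 5 between MHCC97H and Huh7, where 70.2% were called, and 5 between Hep3B and Huh7, where 55.1% were called. With most genes called in each pair, these counts are close to what the whole table shows, and the sizes are more informative. NR1H4 was lower in MHCC97H than in Huh7 (log2 difference -3.67, SE 0.47, adjusted p = 6.03e-05) and than in Hep3B (-2.47, SE 0.47, adjusted p = 0.000992). Between Hep3B and Huh7 the NR1H4 difference of -1.20 did not pass (SE 0.47, adjusted p = 0.0526). NR0B2 was called in both comparisons with MHCC97H, where it held 0 to 2 reads, and its fold is given below against the floor. Between Hep3B and Huh7 NR0B2 did not pass (1.24, SE 0.49, adjusted p = 0.0544). In bulk RNA, fewer cells with a transcript and less of it per cell cannot be told apart.

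The other receptors differed by smaller amounts. NR2F1 was higher in Huh7 than in MHCC97H (log2 difference, MHCC97H minus Huh7, -1.85, SE 0.23, adjusted p = 4.88e-05) and than in Hep3B (Hep3B minus Huh7, -1.98, SE 0.23, adjusted p = 7.51e-05), while Hep3B and MHCC97H did not differ beyond their spread (0.13, 95% interval -0.38 to 0.64). ESRRA was ordered the other way, with MHCC97H above Huh7 by 1.64 (SE 0.11, adjusted p = 7.51e-07), Hep3B above Huh7 by 1.22 (SE 0.11, adjusted p = 2.09e-05) and MHCC97H above Hep3B by 0.42 (SE 0.11, adjusted p = 0.00812). NR2F2 was ordered Huh7, MHCC97H, Hep3B from high to low, with Hep3B lower than Huh7 by a difference of -0.95 (SE 0.18, adjusted p = 0.00152), MHCC97H minus Hep3B at 0.50 (SE 0.18, adjusted p = 0.0328) and MHCC97H minus Huh7 at -0.46 (SE 0.18, adjusted p = 0.0447). NR1H3 was lower in MHCC97H than in Hep3B (-0.95, SE 0.29, adjusted p = 0.0144). PPARD was higher in Hep3B than in Huh7 (0.63, SE 0.18, adjusted p = 0.0135) and than in MHCC97H (MHCC97H minus Hep3B, -0.51, SE 0.18, adjusted p = 0.0284). PPARA was lower in Hep3B than in Huh7 (-0.63, SE 0.20, adjusted p = 0.0214). RXRA did not pass in any pair of lines, its largest difference being Hep3B minus Huh7 at -0.29 (95% interval -0.58 to 0.01). Leaving out the libraries of 1 treatment ended several of these calls, namely those of NR1H3, PPARD, ESRRA and NR2F2 against Hep3B, NR2F2 against Huh7, and PPARD and PPARA between Hep3B and Huh7, with adjusted p from 0.0503 to 0.192 and log2 differences from -0.78 to 0.50.

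The response to the drugs was asked first over the 3 lines together, with cell line as a term. None of the 9 receptors was called for AZD8055 against untreated cells (2.96% of all genes called). None was called for compound #57 against untreated cells either (0.00866% called, 1 gene). An unadjusted p under 0.05 was found for 0 receptors with AZD8055, against 27.4% of all genes. With compound #57 it was found for 3 receptors, against 21.7% of all genes. For the combination against untreated cells 1 receptor was called, PPARA, where 36% of all genes were. For the combination against AZD8055 alone, and for its departure from the sum of both drugs, limma called 0% of all genes. An unadjusted p under 0.05 was found for 1673 genes (14.5% of all) and 178 genes (1.54%) in turn. None of the 178 was a receptor of the set. The drugs were then tested inside each line, where each drug was present in 2 libraries and absent in 2. These are not replicates: the error of each test is the departure of the combination from the sum of both drugs, pooled over the lines. No spread between cultures of the same treatment enters the within-line tests. Of these 54 tests of a receptor 10 passed, spread over 6 receptors: NR1H4, NR0B2, NR1H3, PPARA, RXRA and NR2F1. For AZD8055, 1 receptor was called in Hep3B (6.6% of all genes called), 2 in MHCC97H (30.7% called) and 3 in Huh7 (25% called). For compound #57, 3 were called in Hep3B (28.9% called), 0 in MHCC97H (3.48% called, with PPARA at an unadjusted p of 0.00851) and 1 in Huh7 (8.82% called). The counts lie near these shares. Of the 10 calls 3 held when either of 2 of the line's 4 libraries was left out and 7 were lost whichever library was left out, a fit added after seeing the data in which the remaining spread comes from the other lines.

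**Figure D2:**
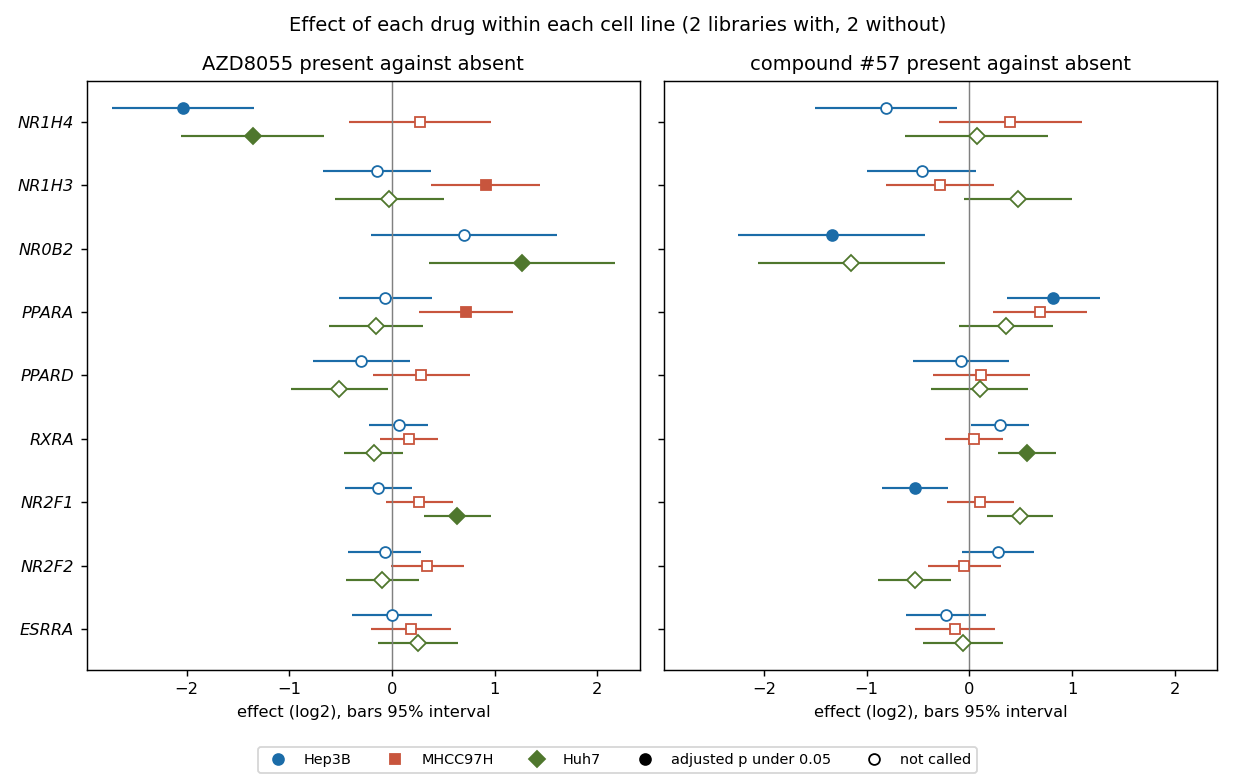
Effect of each drug inside each cell line on the log2 scale, 2 libraries with the drug against 2 without, with 95% intervals from limma; filled symbols passed the adjusted threshold. NR1H4 is shifted furthest by AZD8055, at -2.04 in Hep3B and -1.36 in Huh7, and NR0B2 in MHCC97H is left out because it had at most 2 reads.

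AZD8055 moved NR1H4 more than any other receptor of the set, in the lines where its level was high. In Hep3B it stood at 403 scaled reads in untreated cells, 99.0 with AZD8055, 232 with compound #57 and 55.1 with the combination. In Huh7 the values were 684 untreated, 168 with AZD8055, 453 with compound #57 and 280 with the combination. In MHCC97H they were 18.4, 28.1, 30.7 and 29.9 in the same order, from 24 to 40 reads. In Hep3B and in Huh7 both libraries with AZD8055 lay below both libraries without it, while in MHCC97H the libraries overlapped. AZD8055 lowered NR1H4 in Hep3B by a log2 effect of -2.04 (SE 0.30, adjusted p = 0.0130), a 4.10-fold drop, and in Huh7 by -1.36 (SE 0.30, adjusted p = 0.0160), a 2.56-fold drop. The effect in MHCC97H was 0.27 (95% interval -0.42 to 0.97). The difference of the AZD8055 effect between MHCC97H and the mean of the other lines was tested itself and passed, at 1.97 (SE 0.37, adjusted p = 0.0198), where 9.53% of all genes were called. The count of 1100 genes fell to between 24 and 125 when 1 of the MHCC97H libraries was left out. For the compound #57 effect no receptor was called in this test (5.17% of all genes called), RXRA having the smallest unadjusted p of 0.0349. Between Hep3B and Huh7 the AZD8055 effect on NR1H4 did not differ beyond its error (-0.68, 95% interval -1.66 to 0.30), where 0.0693% of genes were called.

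Some markers of other cell types were called for AZD8055 in each line. Of all genes, AZD8055 called 6.6% in Hep3B, 25% in Huh7 and 30.7% in MHCC97H. Of 7 mesenchymal markers tested, AZD8055 raised 1 in Hep3B, 3 in Huh7 and 1 in MHCC97H and lowered 0, VIM rising by 1.30 in Hep3B and 0.99 in Huh7 (SE 0.17 each). FN1, which held most of the mesenchymal reads, was not called in Hep3B (0.78, adjusted p = 0.180) or Huh7 (0.70, adjusted p = 0.146). Of 5 cholangiocyte or progenitor markers 1 rose and 1 fell in Hep3B, 2 rose and 1 fell in Huh7, and 2 rose and 1 fell in MHCC97H, KRT19 rising by 0.80 in Hep3B and 0.70 in Huh7 (SE 0.16 each). Their part in the receptor results was not tested.

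Between single libraries, counting intervals cover counting error only. AZD8055 alone against untreated cells gave a log2 change of -2.02 in Hep3B and of -2.02 in Huh7. Under the combination, against untreated cells the log2 ratio of scaled reads was -2.87 in Hep3B (95% Clopper-Pearson counting interval -3.26 to -2.50) and -1.29 in Huh7 (interval -1.47 to -1.11). Compound #57 had log2 effects of -0.81 in Hep3B (95% interval -1.51 to -0.12, adjusted p = 0.0773) and 0.07 in Huh7 (-0.62 to 0.76), neither of them called. The Huh7 effect averages opposite log2 ratios between single libraries. Compound #57 against untreated cells gave -0.595 there (counting interval -0.74 to -0.451). The combination against AZD8055 gave 0.736 (counting interval 0.479 to 0.997). Over all 3 lines the combination against untreated cells was -1.16 (95% interval -2.37 to 0.06, adjusted p = 0.120), and without MHCC97H it was -2.07 (SE 0.37, adjusted p = 0.00887). The Hep3B effect of AZD8055 stayed between -2.06 and -2.02 whichever library of the line was left out, with adjusted p from 0.0787 to 0.11. In Huh7 it was -2.02 (adjusted p = 0.0164 and 0.0166) without the compound #57 or the combination library, and -0.69 (adjusted p = 0.179 and 0.168) without the untreated or the AZD8055 library. The difference between MHCC97H and the other lines ranged from 1.64 to 2.30 over these fits and was lost without any 1 of the MHCC97H libraries (adjusted p from 0.0626 to 0.158) and without the Hep3B compound #57 library (adjusted p = 0.0503).

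NR1H4 lies on chromosome 12 at 100473708 to 100564414 (hg38, + strand, 11 exons in the canonical transcript), with 1 unnamed gene overlapping it on the other strand. The RefSeq promoter window, 250 bases before the start (GRCh38.p14, chr12:100503110-100503359, + strand), is shown because NR1H4 had the largest drug effect of the set. It lies inside the annotated gene and outside its exons, and it has 42% G and C. Capitals mark matches, on either strand, to 3 of 4 motifs searched: GTTAAT (the core of an HNF1 element, in 6.2% of all 35116 RefSeq promoter windows), TAAACA (a forkhead core, 11%) and AGGTCA (the hexamer of nuclear receptor elements, 12.1%). The fourth, CACGTG (an E-box, 6.3%), had no match.
NR1H4 promoter window: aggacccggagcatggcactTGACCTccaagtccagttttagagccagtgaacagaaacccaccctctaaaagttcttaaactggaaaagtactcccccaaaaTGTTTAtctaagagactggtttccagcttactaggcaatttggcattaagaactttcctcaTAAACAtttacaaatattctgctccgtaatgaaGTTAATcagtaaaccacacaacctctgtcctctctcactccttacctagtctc
Counted back from the start, GTTAAT begins at 53 bases, TAAACA at 86 and, on the minus strand, at 147, and AGGTCA on the minus strand at 230. None of the matches overlaps another. They describe these letters and not a bound site.

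NR0B2, the repressor that FXR raises in hepatocytes, fell with compound #57 in Hep3B and rose with AZD8055 in Huh7, where NR1H4 fell. In Hep3B it stood at 262 scaled reads untreated, 267 with AZD8055, 64.0 with compound #57 and 167 with the combination. In Huh7 it stood at 65.2 untreated, 165 with AZD8055, 30.3 with compound #57 and 70.6 with the combination. In MHCC97H it had 2, 1, 2 and 0 reads, at or under the floor of 3 reads, so no change can be read there. Compound #57 gave the lowest library in Hep3B and in Huh7, and adding AZD8055 to it gave a level 2.6 and 2.33 times that of compound #57 alone.

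Compound #57 lowered NR0B2 in Hep3B by a log2 effect of -1.34 (SE 0.39, adjusted p = 0.0361). The effect in Huh7 had the same sign but did not pass (-1.15, SE 0.39, adjusted p = 0.105). AZD8055 raised NR0B2 in Huh7 by 1.26 (SE 0.39, adjusted p = 0.0495), a 2.40-fold rise, and its effect in Hep3B did not pass (0.70, 95% interval -0.21 to 1.61). The Hep3B call was lost without the untreated or the compound #57 library (-0.67, adjusted p = 0.415 and 0.396) and held without either of the others (-2.01, adjusted p = 0.0361 and 0.0346). The Huh7 call was lost whichever library was left out (1.196 to 1.33, adjusted p from 0.211 to 0.252). Without MHCC97H, compound #57 against untreated cells called NR0B2 as the only receptor of the set, in a fit that called 778 genes. Set against the floor of 3 reads in untreated MHCC97H, NR0B2 was 114-fold higher in untreated Hep3B and 28.3-fold higher in untreated Huh7. That floor is a chosen threshold and not a limit from counting error, so these folds are not confidence bounds. The gene sits on chromosome 1 at 26911489 to 26913975 (- strand, 2 exons) and overlaps NUDC on the other strand.

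Target genes of FXR were counted from a list of 17, of which 12 were tested, NR0B2 among them. Read counts below are whole reads of each library, not scaled to its depth. AZD8055 left 2 lower and 0 higher in Hep3B (16.7% of the 12, against 6.6% of all genes called), and 3 lower and 2 higher in Huh7 (41.7% against 25%). Compound #57 left 5 higher and 3 lower in Hep3B (66.7% against 28.9%, median log2 effect 0.57, against 0.02 over all genes), and 2 higher and 1 lower in Huh7 (25% against 8.82%). SULT2A1, which sulphates bile acids and steroids, fell with AZD8055 in Hep3B (-1.97, SE 0.41, adjusted p = 0.033) and in Huh7 (-1.32, SE 0.41, adjusted p = 0.0488) and rose with compound #57 in Hep3B (2.41, SE 0.41, adjusted p = 0.00441) and in Huh7 (2.09, SE 0.41, adjusted p = 0.0238). FGF19, the hormone that signals bile acid supply, fell with AZD8055 in Huh7 (-1.17, SE 0.32, adjusted p = 0.0337). In Hep3B the AZD8055 effect on FGF19 was -0.01 (SE 0.32, adjusted p = 0.989), although NR1H4 fell there. SDC1, a heparan sulphate proteoglycan, fell with AZD8055 in Huh7 (-0.93, SE 0.11) and Hep3B (-0.66, SE 0.11).

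The fibrinogen chain FGB and the conjugating enzyme BAAT rose with compound #57. FGB had 2021 reads in untreated Hep3B, 2212 with AZD8055, 37472 with compound #57 and 12942 with the combination, an effect of compound #57 of 3.10 (SE 0.29, adjusted p = 0.000502). BAAT, which joins bile acids to glycine or taurine, had 7, 11, 170 and 135 reads in Hep3B in that order and rose with compound #57 in Hep3B (3.66, SE 0.31), MHCC97H (1.504, SE 0.31) and Huh7 (1.27, SE 0.31). AZD8055 raised BAAT in Huh7 as well (1.26, SE 0.31, adjusted p = 0.0216), but its effect in Hep3B was not called (0.20, SE 0.31). The MHCC97H libraries held 51, 134, 121 and 353 BAAT reads in the same order, higher with either drug than untreated. SLC51B, a subunit of the bile acid exporter OST, fell with compound #57 in Hep3B from 65 reads untreated and 25 with AZD8055 to 3 and 5 reads (log2 effect -3.25, SE 0.57, adjusted p = 0.00493). In MHCC97H 5 of the 12 (FGF19, PLTP, NR0B2, UGT2B4 and SULT2A1) did not exceed 3 reads in any library. FGB is also a hepatocyte marker, and genes of that list were called too. Compound #57 raised 8 of 14 and lowered 2 in Hep3B (28.9% of all genes called). It raised 6 in MHCC97H (3.48% called) and 2 in Huh7 (8.82% called). AZD8055 lowered 4 and raised 0 in Hep3B (6.6% called), and lowered 2 and raised 0 in Huh7 (25% called). In MHCC97H AZD8055 raised 1 and lowered 2 (30.7% called). The part of the hepatocyte marker list in the target results was not tested.

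Of 14 genes of bile acid synthesis 8 were tested, and the rate-limiting CYP7A1 was not among them. CYP39A1, an oxysterol 7-alpha-hydroxylase, fell with AZD8055 in the lines where NR1H4 did. It had 187, 32, 68 and 19 reads in Hep3B for untreated cells, AZD8055, compound #57 and the combination, and 154, 39, 122 and 31 in Huh7, with AZD8055 effects of -2.07 (SE 0.34, adjusted p = 0.016) and -1.63 (SE 0.34, adjusted p = 0.0131). In MHCC97H it had 66, 68, 26 and 45 reads, and the AZD8055 effect there differed from the other lines by 2.13 (SE 0.42, adjusted p = 0.0227). CYP27A1, which opens the alternative pathway, rose with compound #57 in Hep3B (1.09, SE 0.17) and Huh7 (1.26, SE 0.17). HSD17B4, a peroxisomal enzyme of side-chain shortening, fell with AZD8055 in all 3 lines, by effects of -0.66, -0.58 and -0.76 in Hep3B, MHCC97H and Huh7 (SE 0.13 each). Of 12 bile acid transporters 6 were tested: SLCO2B1, an uptake carrier, rose with compound #57 in Hep3B (1.95, SE 0.22) and Huh7 (1.19, SE 0.22), and the exporter ABCC4 fell with AZD8055 in Hep3B (-0.71, SE 0.14) and Huh7 (-1.40, SE 0.14).

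**Figure D3:**
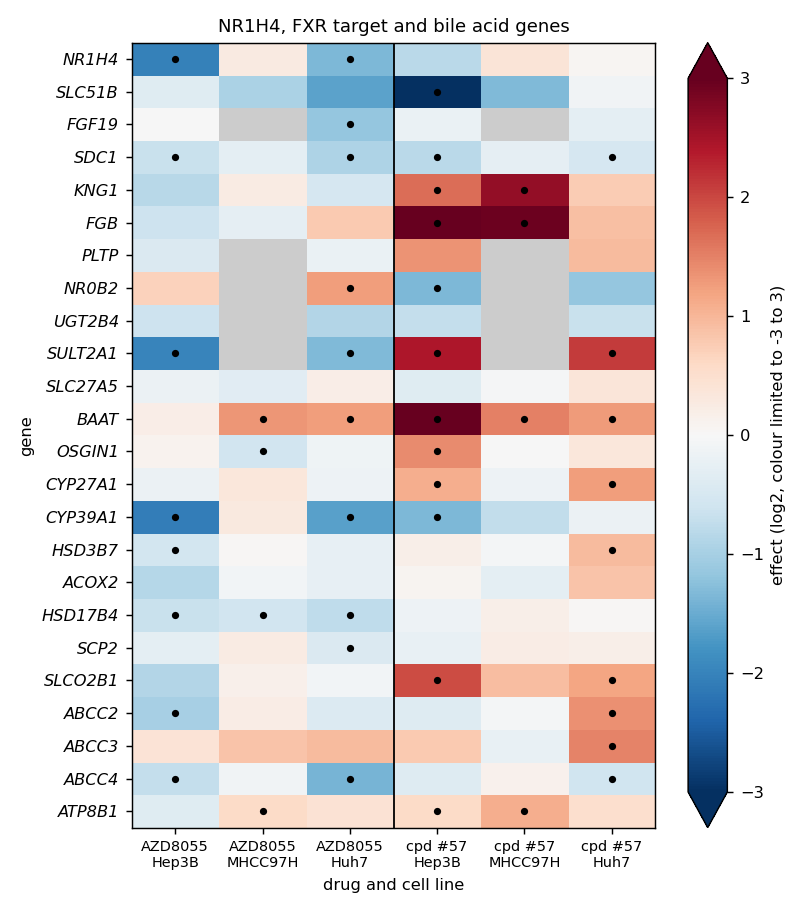
Log2 effect of each drug inside each cell line (colour, limited to -3 to 3) for NR1H4 and the tested FXR target, bile acid synthesis and transport genes; a dot marks an adjusted p under 0.05 and grey marks genes with at most 3 reads in each library of the line. NR1H4 and CYP39A1 share the blue cells of AZD8055 in Hep3B and Huh7, while BAAT is red under compound #57 in all 3 lines and also under AZD8055 in Huh7.

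NR1H3 responded in MHCC97H. There it stood at 117 scaled reads untreated, 247 with AZD8055, 107 with compound #57 and 180 with the combination. In Hep3B it stood at 334, 368, 295 and 218, and in Huh7 at 194, 141, 200 and 265. Both MHCC97H libraries with AZD8055 were above both without it, whereas the libraries with and without AZD8055 overlapped in the other lines. AZD8055 raised it in MHCC97H by a log2 effect of 0.91 (SE 0.23, adjusted p = 0.0204), a 1.88-fold rise, while the effects were -0.15 in Hep3B (95% interval -0.68 to 0.38) and -0.03 in Huh7 (-0.55 to 0.50). The difference between MHCC97H and the mean of the others did not pass (0.997, SE 0.28, adjusted p = 0.0635). The MHCC97H call was lost whichever of its 4 libraries was left out (0.75 to 1.07, adjusted p from 0.0883 to 0.223). NR1H3 spans 47248300 to 47269033 on chromosome 11 (+ strand, 10 exons) and overlaps ACP2 on the other strand.

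Of 15 LXR target genes 12 were tested, NR1H3 itself being on that list. With AZD8055 in MHCC97H 3 rose, namely ABCA1, SMPDL3A and NR1H3, and 1 fell, APOC1 (33.3% of the 12, against 30.7% of all genes called, median effect 0.10, against 0.04 over all genes). ABCA1, which exports cholesterol, had 387 reads untreated, 1285 with AZD8055, 196 with compound #57 and 519 with the combination in MHCC97H (1.44, SE 0.28, adjusted p = 0.00734), and this effect exceeded that in the other lines by 2.001 (SE 0.34, adjusted p = 0.0149). SMPDL3A, a phosphodiesterase, rose there by 1.13 (SE 0.15, adjusted p = 0.00166). In Huh7 0 rose and 3 fell with AZD8055 (25%, as over all genes), among them the lipogenic regulator SREBF1 (-0.87, SE 0.20) and the desaturase SCD (-1.27, SE 0.29), and in Hep3B SCD fell too (-1.23, SE 0.29, adjusted p = 0.0475).

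PPARA was the only receptor called over the 3 lines jointly. In Hep3B it stood at 216 scaled reads untreated, 222 with AZD8055, 411 with compound #57 and 365 with the combination. In MHCC97H it stood at 194, 370, 361 and 516, and in Huh7 at 365, 434, 622 and 420. Each of the 9 treated libraries lay above the untreated library of its line. The combination raised it over the 3 lines by 0.79 on the log2 scale (SE 0.23, adjusted p = 0.0249), the change being 0.75 within Hep3B, 1.40 within MHCC97H and 0.20 within Huh7. Compound #57 against untreated cells gave 0.86 (SE 0.23, adjusted p = 0.105), higher in 3 of 3 lines but not called. The combination call was lost without Huh7 (1.08, adjusted p = 0.0796), without Hep3B (0.80, adjusted p = 0.105) and without MHCC97H (0.48, adjusted p = 0.102), with only the libraries compared (adjusted p = 0.0869), and without the pairing by cell line (adjusted p = 0.443).

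Inside the lines PPARA passed in 2 of 6 drug tests. Compound #57 raised it in Hep3B by a log2 effect of 0.82 (SE 0.20, adjusted p = 0.0182), a 1.76-fold rise, and AZD8055 had an effect of -0.06 there (95% interval -0.52 to 0.39). In MHCC97H AZD8055 raised it by 0.72 (SE 0.20, adjusted p = 0.0277), and compound #57 gave 0.68 (SE 0.20, adjusted p = 0.112). In Huh7 neither passed, with -0.16 for AZD8055 (95% interval -0.62 to 0.30) and 0.36 for compound #57 (-0.10 to 0.82). The difference of the AZD8055 effect between MHCC97H and the others was 0.83 (SE 0.24, adjusted p = 0.0696). The Hep3B call was lost whichever library was left out (0.71 to 0.93, adjusted p from 0.0721 to 0.173), as was the MHCC97H call (0.51 to 0.92, adjusted p from 0.0848 to 0.307).

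PPARA lies on chromosome 22 at 46150521 to 46243755 (hg38, + strand, 9 exons), and its canonical transcript of 10.1 kb is the longest of the set. The 245 bases of the RefSeq promoter window before the first annotated exon (GRCh38.p14, chr22:46150276-46150520, + strand) are shown because PPARA was called over all lines. With 84.1% G and C against 42% for NR1H4, it holds no match to any of the 4 motifs.
PPARA promoter window: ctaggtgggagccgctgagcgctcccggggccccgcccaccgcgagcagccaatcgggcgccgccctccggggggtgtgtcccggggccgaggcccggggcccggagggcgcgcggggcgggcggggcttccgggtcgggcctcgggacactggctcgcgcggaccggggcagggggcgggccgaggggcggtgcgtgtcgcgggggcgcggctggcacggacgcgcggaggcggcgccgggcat
The missing matches concern this window only.

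PPARD, the more widely expressed fatty acid receptor, ranged from 237 to 396 scaled reads in Hep3B, from 183 to 247 in MHCC97H and from 166 to 255 in Huh7. No drug contrast called PPARD, and its largest within-line effect was that of AZD8055 in Huh7 (-0.51, 95% interval -0.99 to -0.04, adjusted p = 0.0990). In Huh7 both libraries with AZD8055 (166 and 174) lay below both without it (232 and 255). The gene is on chromosome 6 at 35342558 to 35428191 (+ strand, 8 exons).

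Of 23 listed genes that PPARA and PPARD are known to drive, 19 were tested. In Hep3B 8 rose and 3 fell with compound #57, which is 57.9% of the 19 where 28.9% of all genes were called (median log2 effect 0.45, against 0.02 over all genes). In Huh7 4 rose and 1 fell, 26.3% against 8.82% (median 0.36, against 0.03). In MHCC97H limma called 0, against 3.48% of all genes (median 0.32, against 0.06). There 9 of the 19 had an unadjusted p under 0.05, against 18.6% of all genes. The shares of all genes called ran in the same order over the lines as those of the targets. AZD8055 raised 1 and lowered 2 in Hep3B (15.8% against 6.6%), raised 5 and lowered 2 in MHCC97H (36.8% against 30.7%), and raised 2 and lowered 6 in Huh7 (42.1% against 25%).

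CPT1A, the gate of mitochondrial fatty acid oxidation, had 361, 739, 2585 and 1671 reads in Hep3B for untreated cells, AZD8055, compound #57 and the combination, and 20, 80, 73 and 256 in Huh7. Compound #57 raised it in Hep3B (1.72, SE 0.24, adjusted p = 0.00194) and Huh7 (1.87, SE 0.24, adjusted p = 0.00692). The effect of compound #57 in MHCC97H was smaller than in these lines by a tested difference of -1.38 (SE 0.29, adjusted p = 0.0367). AZD8055 raised CPT1A in Huh7 as well (2.17, SE 0.24, adjusted p = 0.00161). The AZD8055 effects on CPT1A in Hep3B (0.27, SE 0.24) and MHCC97H (0.36, SE 0.24) were not called. CREB3L3, a hepatocyte transcription factor of lipid metabolism, rose with compound #57 in Hep3B (1.996, SE 0.29) and with AZD8055 in MHCC97H (1.15, SE 0.29). ACSL3, an acyl-CoA synthetase of lipid droplets, fell with compound #57 in Hep3B (-2.29, SE 0.14, adjusted p = 0.000133) and Huh7 (-0.94, SE 0.14). FABP1, which carries fatty acids in hepatocytes, fell with AZD8055 in Huh7 (-1.84, SE 0.47, adjusted p = 0.026). TXNIP, which lies outside fatty acid oxidation, rose with AZD8055 in all 3 lines, by 1.47 in Hep3B, 3.78 in MHCC97H and 1.48 in Huh7 (SE 0.32 each), and fell with compound #57 in Hep3B (-1.70). Over the 3 lines the combination left 5 of the 19 higher than in untreated cells and 1 lower (31.6% called, against 36% of all genes, median 0.13, against 0.09 over all genes).

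**Figure D4:**
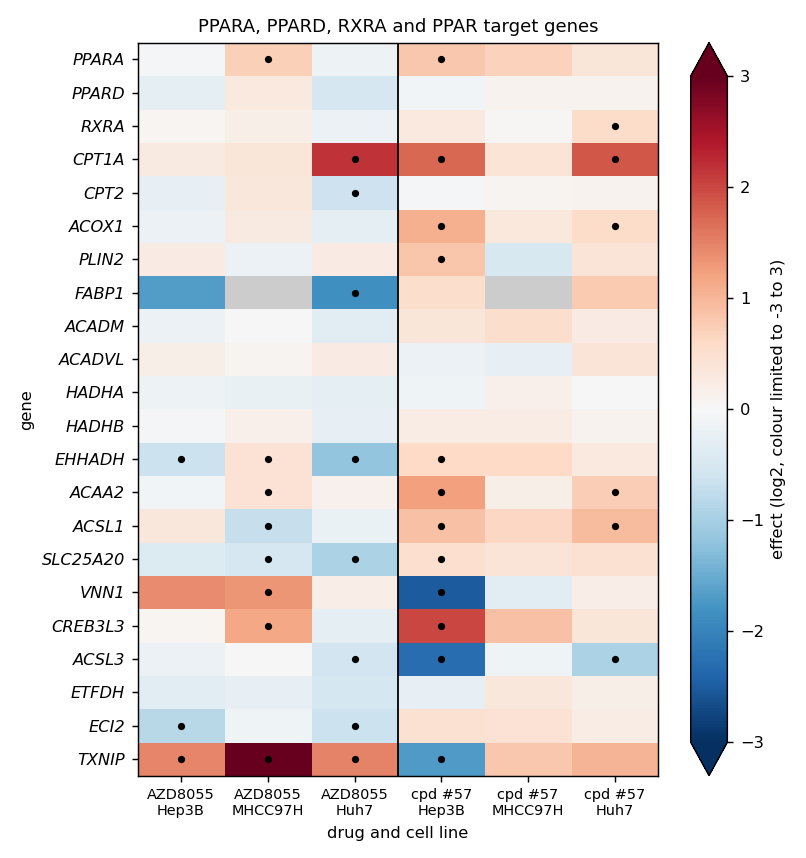
Log2 effect of each drug inside each cell line (colour, limited to -3 to 3) for PPARA, PPARD, RXRA and 19 PPAR target genes; a dot marks an adjusted p under 0.05, grey a gene with at most 3 reads in each library of the line. The Hep3B column of compound #57 holds the most dots, 8 genes higher and 3 lower among the targets.

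RXRA, the shared partner of FXR, LXR and the PPARs, was called in 1 drug test. It stood at 1319, 1593, 1873 and 1699 scaled reads in Hep3B, 1759, 1940, 1783 and 2036 in MHCC97H, and 1702, 1534, 2560 and 2215 in Huh7, in the order untreated, AZD8055, compound #57 and combination. Compound #57 raised it in Huh7 by a log2 effect of 0.56 (SE 0.12, adjusted p = 0.0333), a 1.47-fold rise, and its effect in Hep3B was 0.30 (95% interval 0.01 to 0.58, adjusted p = 0.107). In Huh7 both libraries with compound #57 exceeded both without it. The Huh7 call was lost whichever library was left out (0.53 to 0.59, adjusted p from 0.166 to 0.179). The gene lies on chromosome 9 at 134317098 to 134440585 (+ strand, 10 exons).

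NR2F1 was called once upward in Huh7 and once downward in Hep3B, under different drugs. It stood at 241, 198, 150 and 152 scaled reads in Hep3B, 165, 222, 198 and 214 in MHCC97H, and 494, 741, 670 and 1080 in Huh7, in the same order. The highest Huh7 library was the combination and the lowest Hep3B libraries were those with compound #57. AZD8055 raised it in Huh7 by 0.64 (SE 0.14, adjusted p = 0.0157), and compound #57 lowered it in Hep3B by a log2 effect of -0.53 (SE 0.14, adjusted p = 0.0247) with an effect of 0.49 in Huh7 (SE 0.14, adjusted p = 0.0670). The AZD8055 effect in Hep3B minus that in Huh7 was -0.77 (SE 0.20, adjusted p = 0.282), which did not pass. The Huh7 call was lost whichever library was left out (0.58 to 0.69, adjusted p from 0.0883 to 0.135). The Hep3B call was lost without the untreated or compound #57 library (-0.38, adjusted p = 0.224 and 0.22) and held without the others (-0.68, adjusted p = 0.0456 and 0.045).

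NR2F2 was called in no drug contrast. It stood at 326, 388, 495 and 375 scaled reads in Hep3B, 494, 641, 487 and 605 in MHCC97H, and 943, 885, 653 and 608 in Huh7. In Huh7 both libraries with compound #57 lay below both without it (-0.53, SE 0.15, adjusted p = 0.0679). NR2F1 lies on chromosome 5 at 93583222 to 93594611 and NR2F2 on chromosome 15 at 96325938 to 96340263, both on the + strand with 3 exons. The coding parts of these genes are alike and each overlaps an antisense gene, NR2F1-AS1 and NR2F2-AS1, so their reads are uncertain where the counting could split or merge them.

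ESRRA was called in no drug contrast. It stood at 485, 432, 367 and 414 scaled reads in Hep3B, 552, 640, 510 and 570 in MHCC97H, and 189, 181, 145 and 217 in Huh7. Compound #57 gave the lowest library in each line, with a difference from untreated cells of -0.30 over the 3 lines (SE 0.13, adjusted p = 0.228), and the combination gave 0.00 (95% interval -0.29 to 0.30). The gene lies on chromosome 11 at 64305497 to 64316743 (+ strand, 7 exons) and overlaps TRMT112 on the other strand. Its pseudogenes ESRRAP1 and ESRRAP2 could take or give some of its reads.

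Of 20 listed genes known as ESRRA targets, most but not all of them mitochondrial, 18 were tested, ESRRA being on that list. They were called about as often as all genes were. Over the 3 lines the combination left 7 lower and 0 higher, 38.9% of the 18 against 36% of all genes (median -0.31, against 0.09 over all genes). AZD8055 left 7 lower in MHCC97H (38.9% against 30.7%), 6 in Huh7 (33.3% against 25%) and 1 in Hep3B (5.6% against 6.6%), with 0 higher in each. CYCS, cytochrome c, fell with AZD8055 in each line, by -0.63 in Hep3B, -1.59 in MHCC97H and -0.82 in Huh7 on the log2 scale (SE 0.13 each), and IDH3A, a subunit of isocitrate dehydrogenase, by -0.78 in MHCC97H and -0.54 in Huh7 (SE 0.11 each). TFAM, which maintains mitochondrial DNA, fell with compound #57 in Hep3B (-0.86, SE 0.13) and Huh7 (-0.61, SE 0.13). PPARGC1B, a PGC1 coactivator of ESRRA and the PPARs, fell with AZD8055 in Hep3B (-1.77, SE 0.29), MHCC97H (-1.14, SE 0.29) and Huh7 (-1.94, SE 0.29), and with the combination against untreated cells over the 3 lines by a log2 difference of -2.83 (SE 0.42, adjusted p = 0.00296). Its reads were 107, 40, 39 and 7 in Hep3B, 174, 113, 152 and 56 in MHCC97H, and 157, 25, 52 and 13 in Huh7. Of the 17 tested coactivators and corepressors, the combination left 3 higher and 3 lower (35.3%, against 36% of all genes), SIRT1 being higher by 0.77 (SE 0.11, adjusted p = 0.00257).

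Although NR1I2 was not analysed here, 7 of 14 known PXR targets were tested. Compound #57 lowered 0 in each line and raised 3 in Hep3B (42.9% of the 7, against 28.9% of all genes called), 1 in MHCC97H (14.3% against 3.48%) and 4 in Huh7 (57.1% against 8.82%). The median log2 effects were 0.36, 0.07 and 1.38, against 0.02, 0.06 and 0.03 over all genes. GSTA1, a glutathione transferase, had 288, 80, 1884 and 669 reads in Huh7 for untreated cells, AZD8055, compound #57 and the combination (compound #57 effect 3.02, SE 0.25, adjusted p = 0.0026). CYP3A5, a drug-metabolising cytochrome, had 36, 25, 171 and 150 in Huh7 (2.51, SE 0.24, adjusted p = 0.00377), but 440, 1312, 216 and 566 in MHCC97H, where AZD8055 raised it (1.36, SE 0.24, adjusted p = 0.00549).

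Among other nuclear receptors 21 of 38 listed were in the table. Over the 3 lines the combination left 9 of these higher and 1 lower (47.6%, against 36% of all genes called, median 0.36, against 0.09 over all genes). NR5A2 (LRH-1), which cooperates with FXR on bile acid genes, was raised by the combination by 1.84 (SE 0.33, adjusted p = 0.00452) and by compound #57 in Hep3B by 1.67 (SE 0.23, adjusted p = 0.002), with 674, 711, 3085 and 2345 reads there. In MHCC97H it had only 1, 6, 8 and 13 reads for untreated cells, AZD8055, compound #57 and the combination. The untreated MHCC97H library lay under the floor of 3 reads, so the size of the joint value of 1.84 is uncertain. RORA, another lipid-related receptor, was raised by AZD8055 over the 3 lines by 1.28 (SE 0.25, adjusted p = 0.039). NR1D1 (REV-ERB alpha) was lowered by compound #57 in all 3 lines, with log2 effects of -1.03 (Hep3B), -1.21 (MHCC97H) and -0.99 (Huh7), SE 0.19 each.

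Genes with the course most like each receptor were named from Pearson's r over the 12 libraries after the mean of each line was taken off, among 9880 or 9881 genes with at least 25 reads in every library. This is a description over libraries that share lines and treatments. NR1H4 was followed most closely by SUOX (r = 0.946) and COASY (r = 0.933) and NR1H3 by ACP6 (r = 0.929) and GSDMB (r = 0.919). None is given for NR0B2, which did not exceed 2 reads in the MHCC97H libraries. PPARA was followed by ZNF252P (r = 0.989) and LRP11 (r = 0.959), and PPARD by CPT2 (r = 0.962) and NUBP2 (r = 0.918). RXRA was followed by LBX2-AS1 (r = 0.951) and CYP27A1 (r = 0.925), NR2F1 by STAT5B (r = 0.899) and ZNF420 (r = 0.882), NR2F2 by IGFBP4 (r = 0.824) and WDR26 (r = 0.794), and ESRRA by ARMC10 (r = 0.926) and AGAP3 (r = 0.912). CPT2, a mitochondrial carnitine transferase, is itself a listed PPAR target, and CYP27A1 a bile acid synthesis gene.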

How the data were processed

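RNA was sequenced from Hep3B, MHCC97H and Huh7 cells under 4 treatments, giving 12 polyA-selected stranded libraries with 1 per line and treatment. The authors aligned reads to hg38 and deposited 1 table of log2 values for 11548 genes (4 names stand on 2 lines each). The aligner, the counting tool, its strand setting, the normalization and the gene filter are not given in the sources used here. In the deposited log2 values, 1 had been added to each gene's scaled reads (a library total of 10000000) before the logarithm, and genes without a read carry 0.001. Within a tolerance of 0.02, 100% of the values in each library came out as whole reads, which gave depths of 10659951 to 15957252 reads. Because the deposited unit is log2, no count model was run. A gene at or under 3 reads was held to be at the floor. A 95% interval between libraries covers counting error only, and the floor is a chosen threshold without an error of its own.

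Tests used limma 3.58.1 (R 4.3.3; lmFit, eBayes with trend) over all genes with Benjamini-Hochberg adjustment at 0.05. Treatments were compared with cell line as a term and lines with treatment as a term, and each drug inside a line was fitted as present or absent with the other drug as a term. That last fit had no term for both drugs together, so their departure from additivity served as its error. The replicate number stands for the cell line, so same-numbered libraries are paired: deviations from the treatment means correlated at 0.872 to 0.96 over 18 pairs of libraries of the same line and had a median correlation of -0.636 over 36 pairs of different lines. Fits were run on simulated data with known changes and independent noise. Such data cannot show the spread between cultures that the within-line tests lack. Other settings were 10 added in place of 1, a filter keeping 75% of genes by mean level, median centring, no variance trend, no cell line or treatment term, only the libraries compared, and lines or treatments left out. Leaving out single libraries of a line was added after seeing the data.

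The receptors, and the lists of target genes and markers, were chosen with earlier results of these data known, so no list supports a direction independently. A listed gene is not reported here. All receptors in the table are described, and of each list up to 4 called genes with the largest change in a contrast are named, along with the 2 genes closest in course to each receptor other than NR0B2. Gene positions are from GENCODE release 44 and promoter sequences from RefSeq, where 9 of the 10 receptors had an entry. The other steps ran in Python 3.11.15 (pandas 2.3.3, numpy 2.4.6), with plots in matplotlib 3.10.9 and counting intervals from scipy 1.17.1.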

Additional observations from a re-analysis of the deposited data

Results flagged for a closer look

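The AZD8055 effect differed between MHCC97H and the mean of Hep3B and Huh7 for 2 receptors, by a test of the difference itself in limma. For NR1H4 the difference was 1.97 on the log2 scale (SE 0.37, adjusted p = 0.0198), from effects of 0.27 in MHCC97H, -2.04 in Hep3B and -1.36 in Huh7. MHCC97H had 24 to 40 reads of NR1H4 per library and a shorter exposure, so line and time cannot be told apart. For NR0B2 the difference was -2.0 (SE 0.48, adjusted p = 0.0400), but MHCC97H held 0 to 2 reads, at or under the floor, and with 10 added in place of 1 it was -1.05 (adjusted p = 0.0869). Leaving out single libraries gave -2.44 to -1.56 for NR0B2, with the call kept only without the untreated or the AZD8055 library of Hep3B (adjusted p = 0.0332 and 0.0323).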

How the results depend on the processing

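Without the pairing by cell line (no replicate block) the combination against untreated cells called 0 receptors in place of 1, and each drug contrast over the 3 lines called 0 genes. That count was also 0 with only the libraries compared, and 0 to 1 with a line left out, the 1 without MHCC97H being NR1H4 and not PPARA. Compound #57 against untreated cells gave 0 to 1 with a line left out. Leaving out a treatment gave 3 to 5 receptors for MHCC97H against Hep3B, 4 to 6 for MHCC97H against Huh7 and 4 to 6 for Hep3B against Huh7. Leaving out single libraries gave 0 for AZD8055 in Hep3B and in MHCC97H and for compound #57 in Huh7, 0 to 4 for compound #57 in Hep3B, 0 to 1 for AZD8055 in Huh7 and 0 to 4 for the difference of the AZD8055 effect. In the 75% of genes with the highest mean, where NR1H4 and NR0B2 were not included, counts were 3 for MHCC97H against Huh7, 0 for AZD8055 in Hep3B, 1 for AZD8055 in Huh7 and 0 for the difference of the AZD8055 effect, which was 1 with 10 added. Without the variance trend AZD8055 in MHCC97H called 1 and compound #57 in Huh7 called 0, and centring gave 2 for the latter. The sign turned for PPARA with compound #57 in Huh7, where an uncalled 0.36 ranged from -0.047 without the untreated or the compound #57 library of Huh7 to 0.766 without either of the others. Where no reason is given, the cause was not tested.

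Over all genes, AZD8055 against untreated cells called 342, but 1 without Hep3B, 109 without MHCC97H, 0 without Huh7 and 2 with only the libraries compared. Compound #57 called 1, but 778 without MHCC97H, and 0 without Huh7 and with only the libraries compared. The combination called 4154, but 1797 without Hep3B, 11 without Huh7 and 1889 with only the libraries compared, and against AZD8055 it called 3 without MHCC97H in place of 0. Without the trend AZD8055 in Hep3B called 371 in place of 762, compound #57 in MHCC97H 157 in place of 402 and in Huh7 593 in place of 1018, and the differences between lines 657 in place of 1100 for AZD8055 and 311 in place of 597 for compound #57. The AZD8055 difference between Hep3B and Huh7 called 8, but 15 with 10 added, 3 in the filtered genes and 0 without the trend. Leaving out 1 library of a line left 103 to 191 genes for AZD8055 in Hep3B, 1100 to 2168 of 3342 for compound #57 there, 660 to 1006 of 3549 and 16 to 29 in MHCC97H for AZD8055 and compound #57, and 673 to 886 of 2890 and 45 to 104 in Huh7. For the difference of the effect between MHCC97H and the other lines it gave 24 to 1148 genes in place of 1100 for AZD8055 and 72 to 538 in place of 597 for compound #57, the lowest being 24 and 29 without the MHCC97H untreated or AZD8055 library and, for compound #57, 72 to 79 without any 1 of the MHCC97H libraries. Median centring moved the share of higher genes among the calls from 74.6% to 54.1% for AZD8055, from 58% to 47.2% for the combination, and from 78.9% to 67.2% and from 61.1% to 49.3% for compound #57 in MHCC97H and Huh7. With 1 library per line and treatment, depth limits mainly NR0B2 and NR1H4 in MHCC97H.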
